A study of Mus musculus with 12 samples.

Results

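The 3' UTR peaks described here are peaks listed for AGO2 libraries of muscle that hold a word able to pair with the seed of the let-7 microRNAs. A listed peak need not lie above its input. Every listed peak, with no threshold, was taken from the 4 lists of AGO2 library over input. It was kept if its midpoint lay in a GENCODE M21 3' UTR on the same strand and not in coding sequence. It was a let-7 peak if the peak, extended by 25 nt on each side, held the 7-nt complement of positions 2 to 8 of mouse let-7a-5p. Of 713343 listed peaks, 98940 lay in a 3' UTR and 2205 of those were let-7 peaks. They numbered 483 in WT set 1, 378 in mir-486 KO set 1, 690 in WT set 2 and 654 in mir-486 KO set 2. The choice used sequence and position and no measured value.

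The samples were tibialis anterior muscles of male mice at 6 months of age, WT or mir-486 KO, the second carrying a germline deletion that removes mir-486. The assay, chimeric eCLIP, cross-links AGO2 to RNA, immunoprecipitates it and ligates microRNA to the mRNA held with it. Its reads are meant to come from RNA bound by AGO2, but background RNA can remain among them. The labels give 2 library sets. In each, both genotypes have 1 total immunoprecipitated library with its own input. They name C57BL/6 as the strain of WT and FVB N/J as that of mir-486 KO, and an effect of genotype cannot be told apart from one of the named strain. The study's methods describe backcrossing to C57BL/6J. The design text and the methods count several muscles per genotype and say that the assay was run in duplicate, so the sets may be duplicates of the same material. Whether they hold different mice or pooled muscles is not given in the sources used here, and every spread and test over the 4 libraries may then measure technical rather than animal variation. Each peak carries a log2 fold of its reads over input, and a −log10 p for that difference, both made by the authors. The read depth of the libraries is unknown from these files. A peak is called enriched below if its log2 fold and its −log10 p were both at least 3.

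Marker genes of the labelled muscle and of several other cell types had listed 3' UTR peaks. Over the 4 libraries 10455 genes had such a peak, which need not lie above input, so these counts are weak evidence for a cell type. In each library 6 or 7 of 8 muscle fibre markers had a listed 3' UTR peak, Myh4 being without one in all 4 and Mylpf in both libraries of set 2. All 5 fibroblast, all 5 endothelial and all 3 Schwann cell markers had one in every library. Markers of other cells were found less completely, with 1 or 2 of 4 for adipocytes and for macrophages, 2 or 3 of 5 for red blood cells, and 1 of 2 for satellite cells except in WT set 1, which had 0. Enriched peaks made up 5.89% of all 3' UTR peaks in WT set 1, 1.64% in mir-486 KO set 1, 3.54% in WT set 2 and 3.53% in mir-486 KO set 2, so the mir-486 KO library of set 1 stood below the others for all 3' UTR peaks.

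let-7 is among the oldest and most abundant microRNA families of differentiated tissue. Its members share a seed, the part that pairs with target mRNAs, and an Argonaute protein loaded with any of them can hold the same sites, after which the mRNA is translated less and decayed faster. The family is known for restraining growth and cell cycle genes such as the RAS genes, Hmga2 and Lin28, and the insulin and IGF pathway. The mature sequences that follow, from RefSeq (GRCm38.p6), are shown because their seeds, in capitals, define the word that was searched, while their 3' parts differ.
let-7a-5p: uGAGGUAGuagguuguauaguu
let-7c-5p: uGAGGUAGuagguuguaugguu
let-7d-5p: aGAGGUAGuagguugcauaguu
let-7e-5p: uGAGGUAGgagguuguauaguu
let-7f-5p: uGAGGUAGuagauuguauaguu
let-7g-5p: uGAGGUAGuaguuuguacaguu
let-7i-5p: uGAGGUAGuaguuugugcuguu
miR-98-5p: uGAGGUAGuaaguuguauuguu
All 8 carry the seed GAGGUAG, as do let-7b-5p and let-7k, whereas let-7j in the same table has GAGGUAU. A peak therefore cannot be given to 1 family member by its seed match. The word searched on the peak strand was CTACCTC, and a match followed by A, CTACCTCA, is called an 8-nt match.

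Some of the sites are shown next, all of them found in every library. The first 8 are from the sites with the strongest and most repeated folds over input, and Bach1, Cdc34 and Col3a1 are from the gene lists below. Each is given 5' to 3' on the mRNA strand in GRCm38, with the 7-nt match in capitals, 22 nt before it and 1 nt after it. The bases upstream of the match are those that face the 3' part of the microRNA.
Fam126b: ttaatgcagtggtgcgtttttcCTACCTCa
Map3k1: ctgctgtttattccagtttctaCTACCTCa
Swt1: cttctggagttgacaatacttcCTACCTCt
Fign: ctagtccttgaacttgaacagtCTACCTCa
Usp32: tgtctggggacaacatgatatgCTACCTCc
Rbms1: tcagctgtacgtgatcagttatCTACCTCa
Tgfbr3: tgcctgtctttttgtactgtaaCTACCTCa
Slc10a6: catcttcacacacctgtgttacCTACCTCa
Bach1: cttatacaagccaatggatttcCTACCTCa
Cdc34: cgtgtgggcctcaggcgacagaCTACCTCa
Col3a1: catgtcctcctccctatgttaaCTACCTCa
The match is followed by A, the base that AGO2 favours opposite the first base of a microRNA, in 9 of these 11, which were picked for display. It was at 107 of the 239 sites found in every library, and at 343 of all 904 sites. The bases before the match differ from site to site.

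How often listed peaks covered let-7 words is given first, although this measure was added after the data were seen. The 3' UTRs of the 10455 genes with a listed 3' UTR peak held the let-7 word 1604 times in 21.6 Mb, or 0.0743 times per kb, against a median of 0.0791 per kb over the 104 other orderings of the same 7 letters. The let-7 word was thus not frequent in these 3' UTRs. Of the 1604 occurrences, 54.2% lay in the window of a listed peak of at least 1 library, and the median over the other orderings was 35.1%. No other ordering had a higher share. The nearest, at 52.3% and 50%, were the 2 orderings that hold CATTCC, the 6-nt match to the seed of miR-206, a muscle microRNA. The other 102 orderings lay between 29.5% and 40.3%.

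By library, 30.1% of the let-7 words were covered in WT set 1, 22.6% in mir-486 KO set 1, 41.0% in WT set 2 and 39.2% in mir-486 KO set 2. The median of the 102 orderings without a miR-206 match was 11.9%, 13.7%, 22.2% and 20.97% in the same order, and their highest was 16.9%, 18.2%, 27.9% and 26.3%. The let-7 word stood above all 102 in each library, and below both miR-206 orderings in mir-486 KO set 1 only. Coverage in all 4 libraries was found for 14.7% of the let-7 words and for a median of 4.73% over all 104 orderings.

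**Figure D1:**
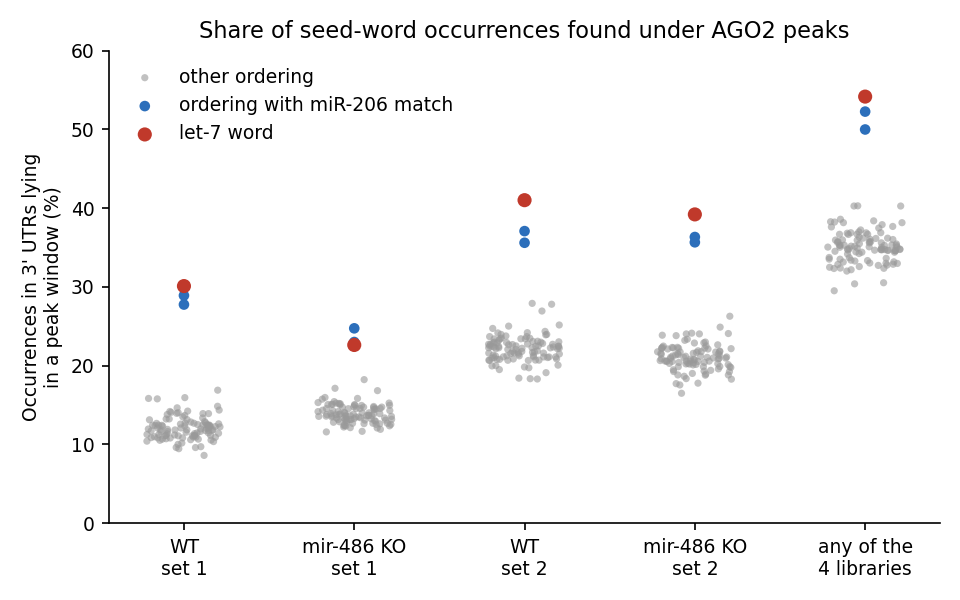
Share of the occurrences of each word in the 3' UTRs of genes with a listed peak (y axis, percent) that lay in a peak window, in each library and in any of the 4 (x axis). Red is the let-7 word, blue the 2 orderings of its letters that hold a 6-nt match to miR-206, grey the other 102 orderings, spread sideways at random. The let-7 word sits at 54.2% for any library, above every grey point.

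The measure planned at the start was the share of 3' UTR peaks that were let-7 peaks. let-7 peaks made up 2.71% of 3' UTR peaks in WT set 1 (95% Wilson interval 2.48 to 2.95), 1.73% in mir-486 KO set 1 (1.56 to 1.91), 2.31% in WT set 2 (2.15 to 2.49) and 2.23% in mir-486 KO set 2 (2.07 to 2.41). These intervals, and those that follow, cover counting error only, and peaks of 1 gene are not independent. The median over the other orderings was 1.21%, 1.14%, 1.42% and 1.33%. In log2 units the let-7 count was 0.80 ± 0.25 (SD, n = 4 libraries) above that median. Between 1 and 6 of the 104 orderings had a larger count by this measure, which also depends on how often a word occurs in the 3' UTRs.

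The log2 fold over input was higher at let-7 peaks than at other 3' UTR peaks in every library. Many peaks of a library share exactly the same log2 fold, for example 0.80 in mir-486 KO set 1, so medians can move in steps. The median log2 fold of let-7 peaks was 1.68 in WT set 1, 0.80 in mir-486 KO set 1, 1.28 in WT set 2 and 1.27 in mir-486 KO set 2. For the other 3' UTR peaks it was 0.87, 0.61, 0.58 and 0.56. The difference was 0.60 ± 0.28 (SD, n = 4 libraries), positive in 4 of 4, with p = 0.125 in the two-sided exact sign-flip permutation test, the smallest p that 4 libraries allow, and 0.15 after Benjamini-Hochberg adjustment over the 6 such comparisons made. It was 0.74 without the mir-486 KO library of set 1. Against other peaks of the same genes only, the difference was smaller, at 0.36 ± 0.24 (SD, n = 4 libraries). The exact sign-flip permutation p was then 0.25, above the smallest possible, so this difference was not positive in every library.

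Enriched peaks were 51 of 483 let-7 peaks in WT set 1 (10.6%, Wilson interval 8.12 to 13.6), 12 of 378 in mir-486 KO set 1 (3.17%, 1.83 to 5.47), 64 of 690 in WT set 2 (9.28%, 7.33 to 11.7) and 52 of 654 in mir-486 KO set 2 (7.95%, 6.11 to 10.3). The other 3' UTR peaks gave 5.76%, 1.62%, 3.40% and 3.43%, close to the shares over all 3' UTR peaks given above. The let-7 share was between 1.83 and 2.72 times as high. Against the 104 other orderings of its letters, whose median enriched share was 7.95%, 2.00%, 4.29% and 4.05%, let-7 was exceeded by 15 orderings in WT set 1, 20 in mir-486 KO set 1, and 1 in each library of set 2. The difference was 4.19 percentage points ± 1.85 (SD, n = 4 libraries), positive in 4 of 4, exact sign-flip permutation p = 0.125, adjusted p = 0.15.

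**Figure D2:**
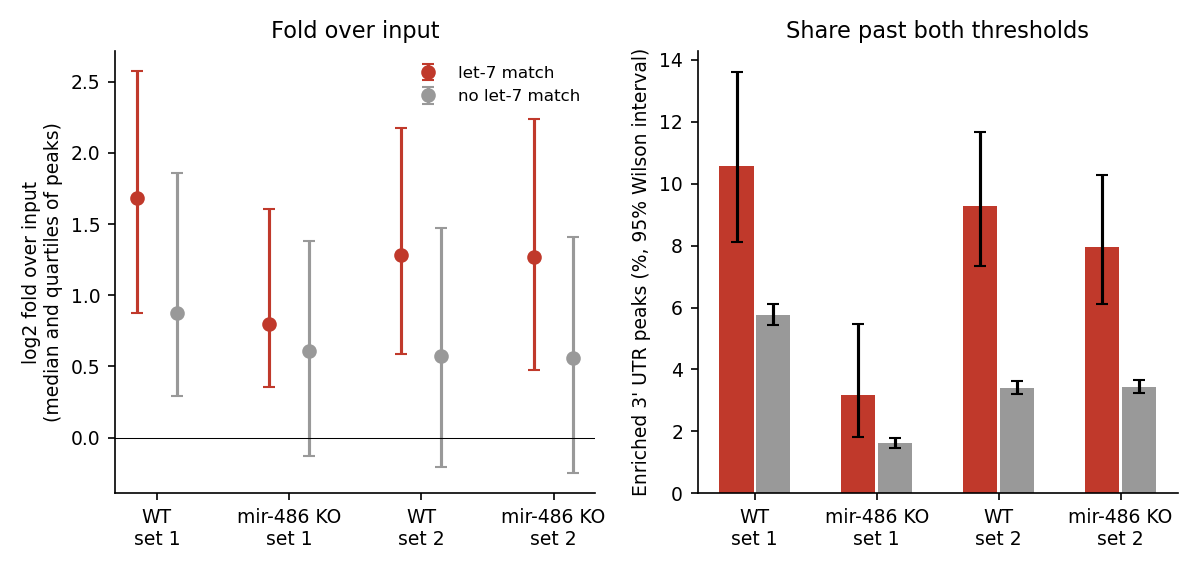
Left, log2 fold over input (y axis) of let-7 peaks (red) and other 3' UTR peaks (grey) in each library, as medians with quartiles of the peaks. Right, percent of peaks past both thresholds with 95% Wilson intervals; red lies above grey in all 4 libraries, least so in mir-486 KO set 1 (3.17% against 1.62%).

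The share of peaks with a let-7 match grew with the fold. In WT set 2 it was 0.763% of 3' UTR peaks with a log2 fold under 0, 2.26% between 0 and 1, 2.86% between 1 and 2, 4.20% between 2 and 3, 5.94% between 3 and 4, and 7.25% (Wilson interval 4.69 to 11.0) at 4 or more. mir-486 KO set 2 ran from 0.928% to 7.31% over the same steps. WT set 1 ran from 1.004% under 0 to 5.15% between 3 and 4 and gave 4.59% at 4 or more. mir-486 KO set 1 ran from 1.21% to 4.08%, the last step resting on 4 of 98 peaks. These steps were not run for the other orderings or by peak width, so how far the share of any word grows with the fold is not shown.

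let-7 peaks were also wider, with a median of 97, 88, 140 and 131 nt against 75, 69, 102 and 98 nt for other 3' UTR peaks in the same order of libraries, and a wider window has more room for a word. The peaks of each library were therefore split by width into 3 groups of equal size. The difference in median log2 fold averaged 0.48 over the libraries among wide peaks (0.31 to 0.63), 0.48 among middle peaks (0.22 to 0.74) and 0.27 among narrow peaks (0 to 0.66). Within each width group the share of enriched peaks was higher among let-7 peaks by 3.42, 2.62 and 1.44 percentage points on average. The narrow group had the only library that went the other way, mir-486 KO set 1, by −0.44 points. There 0 of 75 let-7 peaks were enriched, against 0.444% of the others, so this direction says little. In WT set 1 the narrow group had 1 of 68.

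Matches followed by A were covered more often and had higher folds than the rest. An A after the match lets AGO2 bind the target more tightly, whatever the first base of the microRNA. Of the 529 let-7 words followed by A, 63.5% were covered by a peak (Wilson interval 59.3 to 67.5), and of the 1075 others 49.6% (46.6 to 52.6). For the other orderings the order was turned, with 33.6% followed by A and 36.1% not. Among let-7 peaks, those with an 8-nt match had a median log2 fold of 1.87, 1.26, 1.56 and 1.56 in WT set 1, mir-486 KO set 1, WT set 2 and mir-486 KO set 2. The peaks with a 7-nt match only had 1.46, 0.80, 1.06 and 1.02. The difference was 0.48 ± 0.056 (SD, n = 4 libraries), positive in 4 of 4, exact sign-flip permutation p = 0.125, adjusted p = 0.15.

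Of the peaks with an 8-nt match, 17.4%, 6.71%, 13.98% and 11.99% were enriched, against 5.90%, 0.873%, 6.08% and 5.17% of those with a 7-nt match only. This difference was 8.02 percentage points ± 2.49 (SD, n = 4), exact sign-flip permutation p = 0.125, adjusted p = 0.15. Against the shares over all 3' UTR peaks, the peaks with a 7-nt match only were near the background in WT set 1 (5.89%), below it in mir-486 KO set 1 (1.64%) and above it in both libraries of set 2 (3.54% and 3.53%). This split by the next base was chosen after seeing the data.

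The match lay inside the called peak for 85.4%, 76.3%, 83.5% and 82.1% of matches in the 4 libraries, and for 65.6%, 61.5%, 70.5% and 69.7% of matches to the other orderings. let-7 matches also gathered near the middle. The median distance of a match from the centre of its peak, in either direction, was 19.5, 22.5, 30 and 30.5 nt for let-7, and 28.5, 29, 39 and 38 nt for the other orderings. Within 10 nt of the centre lay 27.8%, 26.03%, 19.6% and 18.5% of let-7 matches, against 18.5%, 17.9%, 13.8% and 14.1%. Peaks with a match inside had a median log2 fold higher by 0.36 ± 0.35 (SD, n = 4; exact sign-flip permutation p = 0.125, adjusted p = 0.15) than those with a match only in the added flank, a mean to which WT set 1 gave 0.81 and WT set 2 only 0.021. Their enriched share differed by 2.99 points ± 3.42 (SD, n = 4; exact permutation p = 0.25, adjusted p = 0.25), which is within the spread of the libraries.

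**Figure D3:**
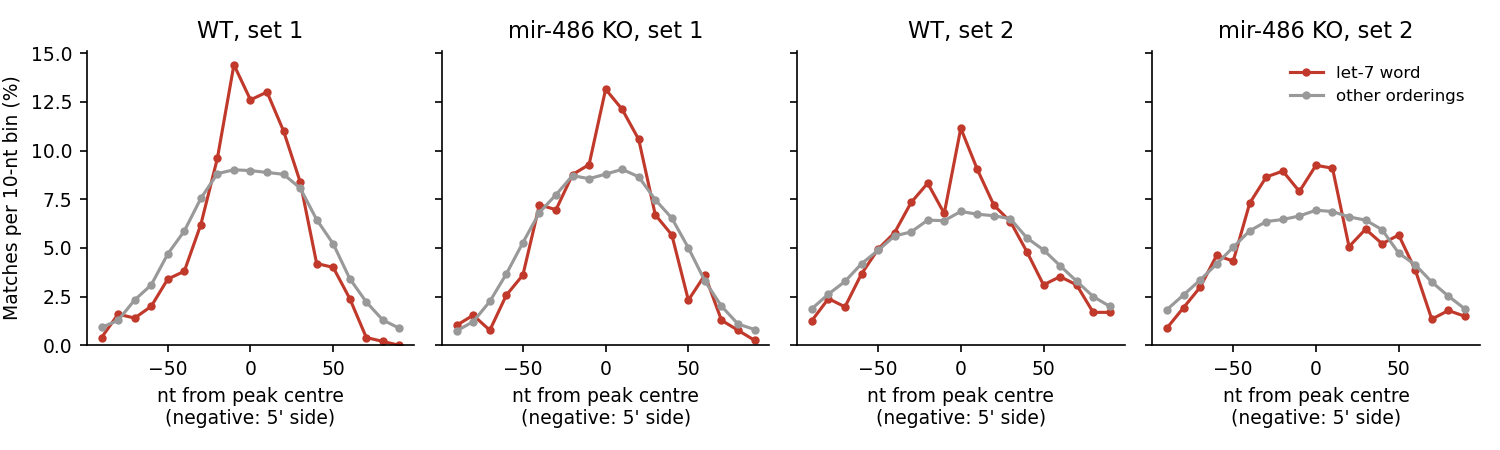
Distance of matches from the peak centre (x axis, nt, negative on the 5' side) as a percent of matches per 10-nt bin (y axis) in the 4 libraries, for the let-7 word (red) and the other orderings of its letters (grey). The red line is highest near the centre in each library and lies above the grey there, with most of the excess within the middle bins.

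Around the match, the 30 nt before and the 30 nt after held 52.8% A or T on average at let-7 sites, and 50.1% at sites of the other orderings, whose means ran from 48.0% to 52.9%. The next base was A at 37.9% of the 904 let-7 sites, T at 32.6%, C at 23.3% and G at 6.08%. The word ACAA, which pairs with positions 13 to 16 of let-7a-5p, stood in the 22 nt upstream of 8.96% of let-7 sites. For the single other orderings this share ran from 2.56% to 7.99%, with a median of 5.31%. Along the 3' UTR, the median let-7 peak lay at 50.4%, 50.9%, 50.7% and 49.2% of the length of the longest annotated 3' UTR, and other peaks at 43.9%, 44.8%, 44.4% and 44.2%. let-7 peaks thus lay farther along the 3' UTR, for example at a median of 983 nt from the stop codon in WT set 1, where other peaks lay at 831 nt.

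The 2205 let-7 peaks covered 904 distinct sites, each assigned to 1 of 816 genes. Of these sites, 277 were listed in 1 library, 207 in 2, 181 in 3 and 239 in all 4. The share in all 4 was 26.4% (Wilson interval 23.7 to 29.4), and 13.7% for sites of the other orderings. Over single orderings it ran from 9.45% to 27.3%, with 2 of the 104 above let-7. The libraries of set 2 shared 514 sites, 75.9% of those of WT and 79.6% of those of mir-486 KO. Those of set 1 shared 272, 55.2% of those of WT and 72.7% of those of mir-486 KO.

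The 239 recurrent sites lay in 228 genes. Their median log2 fold over input was 2.30 in WT set 1, 1.12 in mir-486 KO set 1, 1.62 in WT set 2 and 1.60 in mir-486 KO set 2. The log2 fold was above 0 in all 4 libraries at 180 of them. The nearest listed peak was enriched at 18.8%, 4.60%, 16.7% and 15.1% of the 239 in the same order of libraries. Over all 3' UTR peaks the shares were 5.89%, 1.64%, 3.54% and 3.53%. The enriched share at recurrent sites of the other orderings was not computed, so the counts that follow are not a result about let-7. At 167 sites the nearest listed peak was enriched in no library, at 15 in 3 or 4 libraries, and at 6 in all 4. These 15 sites lay in 14 genes, and those reported here are described next.

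Fam126b, whose product belongs to a complex that anchors a lipid kinase at the plasma membrane, had the highest mean. Its log2 fold over input was 3.28 in WT set 1, 4.21 in mir-486 KO set 1, 5.88 in WT set 2 and 6.27 in mir-486 KO set 2, with a mean of 4.91 ± 1.41 (SD, n = 4). The site is at chr1:58525690-58525696 on the minus strand, 3967 nt into the 3' UTR, and the libraries of set 2 lay above those of set 1.
The site in Map3k1, a kinase at the head of stress-activated MAP kinase cascades, is at chr13:111746742-111746748 on the minus strand. Its log2 fold was 4.55, 4.32, 3.85 and 4.14 in the same order of libraries, so the 4 libraries differed by little around a mean of 4.22 ± 0.30 (SD, n = 4).
Rbms1, an RNA-binding protein, had 4.59, 4.29, 3.20 and 3.27 at chr2:60751084-60751090, with set 1 above set 2.

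The site in Tgfbr3, a co-receptor for TGF-β ligands, had a log2 fold of 4.47 in WT set 1, 3.15 in mir-486 KO set 1, 3.44 in WT set 2 and 3.55 in mir-486 KO set 2 at chr5:107106961-107106967.
AW549877 had 5.21, 3.00, 3.98 and 3.41 at chr15:3985433-3985439. At both sites the WT library of set 1 was highest and the mir-486 KO library of set 1 lowest. The sites in Fam126b, Map3k1, Rbms1, Tgfbr3 and AW549877 were each enriched in all 4 libraries.

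The 9 other sites were enriched in 3 libraries. Fign, which encodes an ATPase that severs microtubules, had a pair of them, 5035 and 5137 nt into its 3' UTR and both followed by A. At the second the log2 fold was 3.43, 2.12, 5.56 and 4.79 in the same order of libraries. The same peak covered both sites in all libraries but mir-486 KO set 2, so they are not separate measurements.
Swt1 had 4.43, 2.97, 5.51 and 3.49 at chr1:151368256-151368262.
Usp32, a ubiquitin-specific protease, had 4.46, 2.89, 3.15 and 5.19 at chr11:84985966-84985972.
In these 3 genes the library that missed the thresholds was mir-486 KO set 1. The same library was the one under the fold threshold for Gxylt1, a sugar transferase that acts on Notch (1.97), Slc10a6, a carrier of sulfated steroids (1.61), and Ccdc71l (1.80). Gigyf1, an adaptor protein that binds Grb10, went the other way, with 2.38 in WT set 1 and 4.08 in mir-486 KO set 1. Ctsc, the lysosomal protease cathepsin C, varied least, between 3.35 and 3.66.

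**Figure D4:**
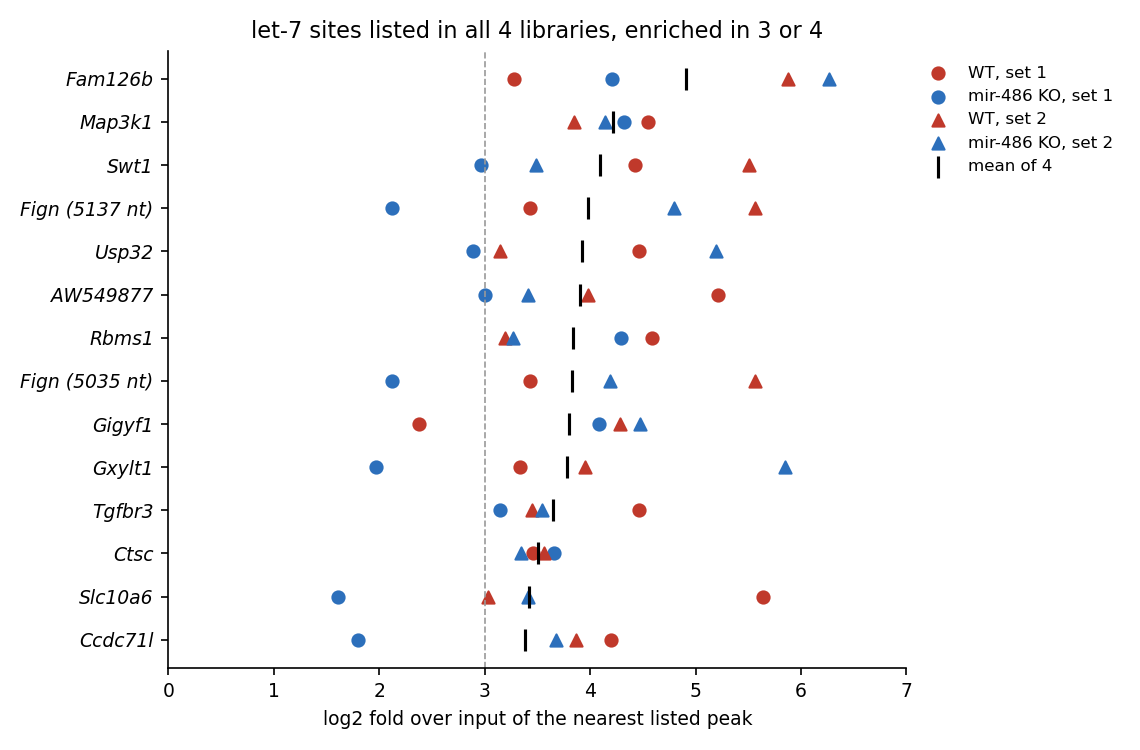
log2 fold over input (x axis) of the nearest listed peak at 14 of the 15 let-7 sites listed in all 4 libraries and enriched in 3 or 4 (y axis, by gene; nt into the 3' UTR is given for the pair in Fign). Red is WT, blue mir-486 KO, circles set 1, triangles set 2, black bars the mean of 4, the dashed line the fold threshold of 3. The blue circles lie left of the line at 7 sites, none of them enriched in all 4 libraries.

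Most genes had a single let-7 site, and 62 had 2 or more. Mcf2l, a guanine nucleotide exchange factor for small GTPases, held a tandem run of 7 sites within 240 nt on chromosome 8 (chr8:13018264-13018503), between 92 and 325 nt into a 3' UTR of 2731 nt, with starts 26 to 56 nt apart. Some of them are shown because the bases before the match repeat along with it, capitals again marking the match.
Mcf2l site 1: ccagacatgaccatgtgtgttcCTACCTCa
Mcf2l site 2: cagacatgtccctgtgtgattcCTACCTCa
Mcf2l site 3: ctcagacatgacctatgtgttcCTACCTCa
Mcf2l site 5: tcagacatgaccatgtgtgttcCTACCTCa
Mcf2l site 7: ctcagacatgacctacttgttcCTACCTCa
All 7 were followed by A. In set 2 a single peak covered all 7, with a log2 fold over input of 3.69 in WT and 2.82 in mir-486 KO. In set 1 the peaks at the sites had between 1.196 and 2.68 in WT, where 5 of the 7 sites were listed, and 1.61 in mir-486 KO, where 3 of the 7 sites were listed. Nudt12 also held 7 sites, but in a short repeat under 1 peak, and they were listed in 1 library only, WT set 1, with a log2 fold of 0.87. Nr6a1, an orphan nuclear receptor of the germ line and embryo, held 8 sites. The one at chr2:38723511-38723517 had a log2 fold of 2.68 in WT set 1, 2.89 in mir-486 KO set 1, 5.09 in WT set 2 and 4.73 in mir-486 KO set 2, so set 2 was above set 1. Mcf2l, Nudt12 and Nr6a1 were picked for their number of sites, with the data in view.

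Among genes chosen as known let-7 targets, 36 of 42 had a 3' UTR peak and 19 of those held a let-7 site (52.8%). Over all 10455 genes with a 3' UTR peak, 818 did (7.82%). Such a list is made of genes known for let-7 matches, so a high count of sites is built into it. The list was also chosen with earlier results of these data known. At 6 of the 19 genes a site was enriched in at least 1 library, and over all genes this held for 95 of the 818 with a let-7 site. The first site of Bach1, a repressor of antioxidant genes, had a log2 fold of 5.33 in WT set 1, 1.97 in mir-486 KO set 1, 2.50 in WT set 2 and 4.44 in mir-486 KO set 2. Its second site, 293 nt downstream, had 2.68, 3.08, 3.07 and 2.51, so the libraries ranked differently at the 2 sites of 1 gene. Cdc34, a ubiquitin-conjugating enzyme of the cell cycle, had 4.96, 2.10, 2.65 and 2.88, with the reservation that its copy Cdc34b has the same 30 nt around a let-7 site, so reads may be shared between them. Map4k3, a kinase upstream of mTORC1, had 3.87, 2.12, 2.88 and 4.58. Plagl2, a zinc finger factor, was listed in 3 libraries and enriched in each, at 3.30, 5.04 and 3.54 in WT set 1, WT set 2 and mir-486 KO set 2.

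Other genes of this list gave lower values. Nras, a RAS gene, had a log2 fold of 2.22, 1.30, 2.06 and 1.81 in the same order of libraries and was enriched in none, and Tgfbr1, a TGF-β receptor, had 2.68, 1.02, 2.17 and 1.49. Hmga2 and Igf2bp2 were listed in WT set 2 only, at 1.47 and 2.28. E2f6, Dusp22, Nap1l1 and Rdx were listed in all 4 libraries and enriched in none. In these 4 genes, and in Nras and Tgfbr1, WT set 1 was the highest of the libraries.

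In insulin and IGF signalling 5 of 18 genes with a 3' UTR peak held a let-7 site (27.8%), against 7.82% over all genes. This list and that for matrix were also chosen with earlier results of these data known. Their shares are therefore not a result about these groups of genes. The site in Rictor, the defining subunit of mTORC2, had 3.73, 2.05, 2.71 and 2.38 and was enriched in WT set 1 alone. The site in Insr, the insulin receptor, had 2.04, 0.97, 0.81 and 1.28. Igf1, Akt1 and Tsc1 were listed in 1 or 2 libraries.
Of 23 genes for collagens and matrix with a 3' UTR peak, 10 held a site (43.5%, against the same 7.82%), at 4 of them in all 4 libraries. Col3a1, the fibrillar collagen of soft connective tissue, had 2.68, 3.4997, 4.11 and 3.68, and was enriched in both libraries of set 2. Col1a2 had 1.77, 1.91, 2.17 and 2.43, Col5a2 1.87, 1.97, 2.93 and 3.24, and Adamts5, a matrix protease, 2.33, 2.71, 2.16 and 1.501. At the 3 collagens the WT library of set 1 was the lowest of the 4, unlike at the 6 genes just described.

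The lists of muscle fibre genes and of the microRNA pathway were also chosen with earlier results of these data known. Their shares rest on few genes and are not a result about these groups. In the list for sarcomere and calcium handling 3 of 29 genes with a 3' UTR peak held a site (10.3%), against 7.82% over all genes. Tpm2, a tropomyosin of the thin filament, had a log2 fold of 2.58, 2.48, 2.04 and 1.99 in the 4 libraries, and Dmd, dystrophin, had 0.46, 0.45, 0.46 and 0.52. In the list for muscle growth, atrophy and transcription 3 of 17 held a site (17.6%), among them Fbxo32, the ubiquitin ligase atrogin-1, at 1.87, 0.81, 1.79 and 1.51. In the microRNA pathway the only gene of the 14 was Ago2 (7.14%), with 1 site listed in both libraries of set 2 at 1.56 and 0.66 and another in WT set 1 at 2.04. None of the 7 genes with a site in these 3 lists had an enriched one, a count that the 95 of 818 over all genes would put below 1.

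The effect of genotype could be read only within sets, with 1 library for each genotype. The share of 3' UTR peaks with a let-7 match was 0.98 percentage points higher in WT than in mir-486 KO in set 1 and 0.080 points higher in set 2, with a mean difference of 0.53. The exact permutation test of 2 against 2 gave p = 0.333, the smallest it allows. Peaks with seed words of other families showed the same split between the sets. The share in mir-486 KO divided by that in WT was 0.638 for let-7, 0.662 for miR-206, 0.638 for miR-29 and 0.677 for miR-30 in set 1, and 0.966, 0.992, 1.07 and 1.02 in set 2. The low enriched share of the mir-486 KO library of set 1 given above moved with these values, and its part in them was not tested. In whole muscle, fewer cells of a type and less RNA per cell cannot be told apart in such values.

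At the 239 recurrent sites the log2 fold over input was higher in WT than in mir-486 KO at 186 in set 1 (median difference 1.08). In set 2 it was higher in WT at 114 (median difference −0.058). The same count was not made at recurrent sites of the other orderings. Over all other 3' UTR peaks the median was 0.87 in WT and 0.61 in mir-486 KO of set 1, and 0.58 and 0.56 in set 2. In log2 fold over input, the WT excess of set 1 at the 239 sites was not seen in set 2. Between sets, the WT libraries differed at these sites by a median of 0.54 (set 1 higher) and the mir-486 KO libraries by −0.53 (set 1 lower). In the direct comparisons of set 2, described next, the median at these sites was 0.14 in WT over KO and −0.21 in KO over WT. For other 3' UTR peaks it was 0.31 and −0.12.

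The authors also compared the immunoprecipitated libraries directly, at the peaks of 1 genotype in each list. Of let-7 peaks, 6 of 483 passed both thresholds in WT over KO of set 1 (1.24%), where 0.42% of all 3' UTR peaks did. None of 378 passed in KO over WT of set 1 (all 3' UTR peaks 0.228%), none of 690 in WT over KO of set 2 (0.0268%) and none of 654 in KO over WT of set 2 (0.0136%). With such backgrounds, fewer than 1 let-7 peak would stand at the level of all 3' UTR peaks in the last 3 lists, so these zeros say little about let-7 peaks.

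The 6 peaks lay in Plekhh1 (log2 WT over KO 4.80), Tead4 (4.55), Fas (4.25), Slc10a6 (3.93), Aqp4 (3.33) and Arid3a (3.07). Tead4 is a transcription factor of the Hippo pathway, Fas a death receptor and Aqp4 the water channel of fast fibres. In set 2 the overlapping peak had a log2 WT over KO of 0.28 in Tead4, 0.12 in Fas, 0.14 in Slc10a6 and 0.17 in Arid3a, and no peak overlapped those in Plekhh1 and Aqp4. Of the 6, only that in Slc10a6 was itself enriched over input in WT set 1, at a log2 fold of 5.64 with a −log10 p of 16.1. The 5 others had a −log10 p over input between 0.94 and 2.34.

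Over all let-7 peaks, the median log2 fold was 0.78 in WT over KO and −0.34 in KO over WT of set 1, against 0.53 and 0.43 for other 3' UTR peaks. Each list holds the peaks called in the library named first, and other 3' UTR peaks were above 0 in both directions. let-7 peaks were above 0 in the WT list and below 0 in the mir-486 KO list. In set 2 the medians were 0.18 and −0.12 for let-7 peaks, and 0.31 and −0.12 for others. The median of peaks with a miR-206 match was 0.64 and −0.42 in set 1, and 0.20 and −0.20 in set 2, values that lie beside those of let-7. For miR-29 the 4 medians were 0.65, −0.16, 0.12 and −0.10, and for miR-30 they were 0.69, −0.16, 0.20 and −0.12.

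**Figure D5:**
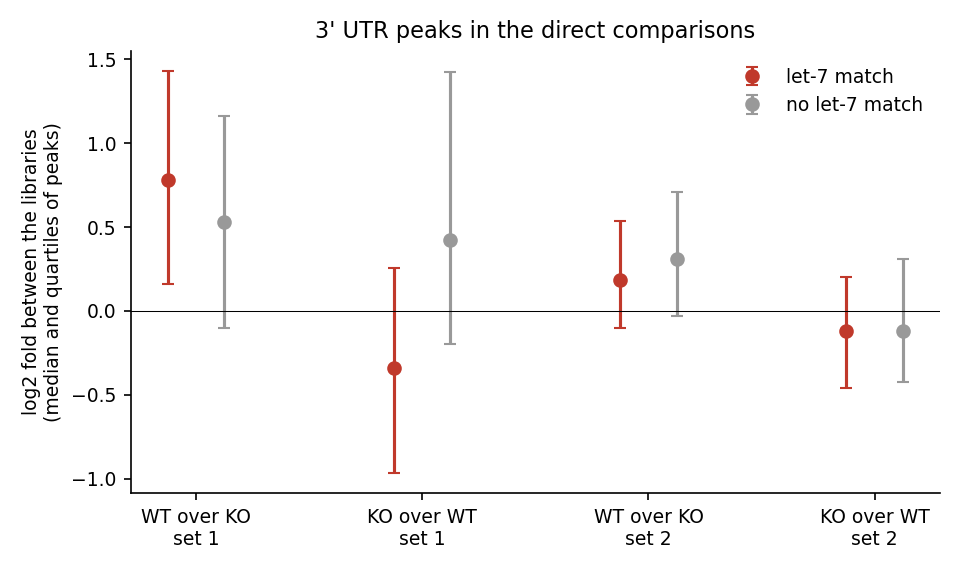
log2 fold between the immunoprecipitated libraries (y axis) of let-7 peaks (red) and other 3' UTR peaks (grey) in the 4 direct lists (x axis), as medians with quartiles of the peaks. In KO over WT of set 1 the let-7 median is −0.34 and the other median 0.43; in set 2 the medians lie within 0.13 of each other.

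Words of other families were rare in let-7 peaks, as they were in other 3' UTR peaks. In WT set 2, 2.46% of let-7 peaks also held a miR-206 match, 3.77% a miR-29 match and 2.32% a miR-30 match. Other 3' UTR peaks gave 3.36%, 3.37% and 3.54%. In WT set 1 the shares were 2.07%, 2.69% and 1.66%, against 4.47%, 4.44% and 4.06%. let-7 peaks had a lower enriched share than miR-206 peaks in each library, for example 9.28% against 17.3% in WT set 2. Against miR-29 and miR-30 the order varied. In WT set 1 miR-29 (11.8%) and miR-30 (10.9%) were both above let-7 (10.6%), and in mir-486 KO set 1 miR-29 (3.74%) was above and miR-30 (2.36%) below let-7 (3.17%). In set 2 both were below it, at 6.05% and 7.44% in WT and 5.66% and 7.82% in mir-486 KO. These differences between families were not tested.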

How the data were processed

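Chimeric AGO2 eCLIP peaks of 4 total immunoprecipitated libraries (WT and mir-486 KO, sets 1 and 2) were analysed; miR-486-enriched libraries were not used here. The submitters' processing notes name cutadapt, UMI-tools, FastQC, STAR, SAMtools and GRCm38 (mm10), and the study's methods a CLIPper peak caller with normalization to input and merging of overlapping peaks. They deposited a log2 fold per peak and the −log10 of its p-value, which reached 400. These are the authors' values, and the columns of peak folds were used to describe and count peaks, with no read counts to give depth. The direct lists of WT against KO hold the same 2 columns.

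Genes and 3' UTRs came from GENCODE M21, and sequence from GRCm38, whose chromosome names matched; the labels name a later GENCODE release. Words were searched in Python 3.11 with pandas on the peak strand. Coordinates are 1-based. Libraries were the replicates. Exact sign-flip tests over 4 libraries and exact 2-against-2 permutation tests were two-sided. Named genes were those of sites listed in all 4 libraries and enriched in 3 or 4 (at most 20 by mean log2 fold), members of 6 gene lists that held a site, and direct peaks past both thresholds; Mcf2l, Nudt12 and Nr6a1 were chosen after their values were seen, for their number of sites. Where several peaks covered a site, the nearest was used. The members, lists and tests were chosen with earlier results of these data known. The word search was tested on simulated data with planted words. Alternatives were the extension, word length, region rule, thresholds, comparison peaks, and leaving out libraries; width groups, coverage of 3' UTR words and the split by the next base were added after seeing the data. Values of some named sites are not reported here.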

Additional observations from a re-analysis of the deposited data

Results flagged for a closer look

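A pair of genotype measures at let-7 peaks had opposite signs in the 2 sets. In the direct WT over KO lists, the median log2 fold of let-7 peaks minus that of other 3' UTR peaks was 0.25 in set 1 and −0.13 in set 2. The same measure also changed sign for the other families, from 0.098 to −0.11 for miR-206, 0.11 to −0.19 for miR-29 and 0.16 to −0.11 for miR-30. The let-7 median itself was above 0 in both WT over KO lists (0.78 and 0.18). At the 239 sites listed in all 4 libraries, the median WT minus mir-486 KO difference in log2 fold over input was 1.08 in set 1 and −0.058 in set 2, where 114 of the 239 sites were higher in WT. In the direct WT over KO lists the median at these sites was 0.64 and 0.14. Neither measure was computed at recurrent sites of the other orderings. Each set has 1 library per genotype, so the difference between the sets was not tested. The mir-486 KO library of set 1 also had the lowest share of enriched peaks over all 3' UTR peaks (1.64%), and the shares of peaks with miR-206, miR-29 and miR-30 words were lower in it than in WT of that set. The part of that library in these values was not tested.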

How the results depend on the processing

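The differences in log2 fold and enriched share stayed positive on average under every alternative run (0.27 to 0.90 in median log2 fold, 1.44 to 8.88 percentage points in enriched share), and the WT minus KO difference in let-7 share stayed positive (0.080 to 0.98). No test could pass 0.05 at these sample sizes. Leaving out each library in turn gave 0.68 to 0.87 for the log2 ratio of the let-7 count to the other orderings, 0.54 to 0.74 for the median log2 fold, 3.62 to 5.06 points for the enriched share, 0.28 to 0.78 points for the WT minus KO share, 18.01 to 20.5 points for coverage over the median ordering, 0.46 to 0.50 for 8-nt over 7-nt matches, 80.6% to 83.7% for matches inside the peak, and 30.7% to 40.9% for sites in all remaining libraries.

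The log2 ratio of counts was 1.09 with no extension, 1.77 for the 8-nt word and 0.27 for the 6-nt word. Coverage over the median ordering was 22.3 points with no extension, 15.6 with 50 nt and 16.1 in set 1 alone. Sites in all libraries used were 20.7% with no extension, 31.2% for the 8-nt word, 21.6% for the 6-nt word, 45.7% in set 1 and 63.5% in set 2, where only 2 libraries were required. Matches inside the peak were 70.7% with 50 nt, which adds room outside it, and 76.4% for the 6-nt word. let-7 peaks past the thresholds in WT over KO numbered 3 for the 8-nt word, 3 when the log2 fold had to reach 4, 3 when the −log10 p had to reach 5, 43 when a log2 fold of 1 was enough, and 0 in set 2 alone. In KO over WT they numbered 4 for the 6-nt word and 4 when a log2 fold of 1 was enough. Where no cause is given, the cause was not tested. Depth limits could not be set, as no read counts were used.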

Other observations

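The lists also held peaks at let-7 genes. Of 12 let-7 and miR-98 genes in the RefSeq table, 10 had a listed peak on the same strand in each library, and 9 or 10 an enriched one. The highest log2 fold over input at Mirlet7a-2 was 8.08 in WT set 1, 8.09 in mir-486 KO set 1, 9.23 in WT set 2 and 8.32 in mir-486 KO set 2. At Mirlet7g it was 7.06, 7.96, 8.18 and 9.34. Mirlet7e and Mirlet7f-1 had no listed peak in any library. The folds of Mirlet7a-2 and Mirlet7g were above those of the 3' UTR sites plotted by gene in each library, while Mir98 had 4.004 in WT set 1 and 2.80 in mir-486 KO set 1. Reads from a mature microRNA that several genes share cannot be placed at 1 of them.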
